A study of Mus musculus with 24 samples.

Results

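The lungs of newborn mice at day 1 and of pups at day 7 were compared for their microRNAs (miRNAs), small RNAs that bind messages and hold back their translation. The comparison rests on 10 of the 24 arrays of the series, 5 for each age, and on the 312 of 611 mouse miRNA names that were detected on all arrays of at least 1 of the 2 ages. All animals were C57BL/6 mice, the tissue was whole lung, and the submitters described the animals as healthy and gave no treatment, allele or sex. Each array carried 100 ng of Cy3-labelled total RNA and is labelled as a separate biological replicate. The series title names fetal lungs, while every sample label gives an age after birth, and the labels were followed. Day 4, with 5 arrays, is used here as the step within the week. The remaining arrays, 5 of day 14 and 4 of day 42, enter the shared estimate of the spread and a short account of what came after the week.

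Mice are born with wide, simple air sacs, and the walls that divide them into alveoli form mainly in the first weeks after birth. In the first week the lung thus leaves its fetal growth state, begins to breathe air, and starts to form septa. A miRNA finds its messages chiefly through its seed, bases 2 to 8 from its 5′ end, so miRNAs with the same seed can act on the same messages. Most hairpins yield a dominant arm and a minor one, written with an asterisk or as 5p and 3p. Many miRNAs of fetal tissue lie in imprinted regions, where only the copy from the mother or only that from the father is read. A large such group in the mouse is the Dlk1-Dio3 region, whose miRNAs are read from the maternal copy. Another imprinted pair, linked to growth before birth, is formed by H19 and Igf2.

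The sequences that the main results turn on are given first, each 5′ to 3′ with its seed in capitals, from RefSeq on build GRCm38.p6, in which 36 of the 37 names looked up had an entry. The first set holds miRNAs of imprinted regions that were called as falls with all arrays. No seed in this set is shared by 2 of its members. Here miR-675-3p comes from the first exon of H19, at chr7:142577078-142577099 on the minus strand, and the others from the plus strand of the Dlk1-Dio3 region, between chr12:109592888-109592909 for miR-127 and chr12:109743204-109743225 for miR-409-3p.
miR-675-3p: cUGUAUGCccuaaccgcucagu
miR-127: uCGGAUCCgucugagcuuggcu
miR-434-3p: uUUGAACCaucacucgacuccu
miR-154: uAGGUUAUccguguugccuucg
miR-409-5p: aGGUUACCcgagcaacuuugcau
miR-409-3p: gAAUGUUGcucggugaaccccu
The second set shows 3 miRNAs with the seed AGUGCAA, because miR-130b fell and the others were not called. Between miR-130a and miR-130b the differences are U11A and A13G, counted from the 5′ end with the base of miR-130a first.
miR-130b: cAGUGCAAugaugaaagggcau
miR-130a: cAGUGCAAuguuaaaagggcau
miR-301a: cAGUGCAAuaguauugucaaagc
The third set shows 4 miRNAs with the seed AGCAGCA of the miR-15 and miR-16 family. Its members miR-497 and miR-195 are neighbours, at chr11:70234730-70234751 and chr11:70235062-70235082, both on the plus strand.
miR-195: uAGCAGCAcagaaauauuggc
miR-497: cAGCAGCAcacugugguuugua
miR-15a: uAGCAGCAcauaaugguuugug
miR-15b: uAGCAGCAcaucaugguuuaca
The last set holds miR-210, from chr7:141221407-141221428 on the minus strand, and miR-551b, from chr3:29416879-29416899 on the plus strand, which stood out among the falls and the rises.
miR-210: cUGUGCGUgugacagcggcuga
miR-551b: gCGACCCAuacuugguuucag

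Over the first week 34 of the 312 miRNAs fell and 17 rose, at an adjusted p under 0.05 in limma, a linear model with a variance estimate shared across miRNAs, fitted over all arrays. Of these, 8 fell and 4 rose at least 2-fold (3.73% of all 322 names tested were called at that size). In a fit of only the 258 names detected on all arrays of both ages, 31 fell and 12 rose, all 43 of them also called above. The rises of miR-153, miR-24-1*, miR-701 and miR-145* entered only through day 7, where they were higher. The fall of miR-134 entered only through day 1. The falls were led by miR-675-3p of H19 and by the Dlk1-Dio3 miRNAs, which supplied 21 of the 34, and the rises with the lowest adjusted p were those of miR-497 and miR-195. Over all 322 names tested, 15.8% were called (10.6% fell and 5.28% rose), and 114 of the 312 miRNAs had an unadjusted p under 0.05. The median change was -0.09 on the log2 scale over the 312 miRNAs and -0.10 over all names tested. For 35 miRNAs every day 7 array lay below every day 1 array, and for 13 every day 7 array lay above (10.9% and 4.04% of all names tested, respectively). The split of rises and falls moved with the scaling. It was 52 to 32 with the 75th percentile over all names, 44 to 30 with quantile normalization, 48 to 23 in the deposited table, 123 to 1 with no scaling and 6 to 0 with normexp background correction. In that order the median change of all names tested was 0.03, 0.01, 0.05, 0.60 and -0.83, so that changes are read here relative to the bulk of miRNAs on an array. In whole lung, fewer cells of a type and less of a miRNA per cell cannot be told apart.

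**Figure D1:**
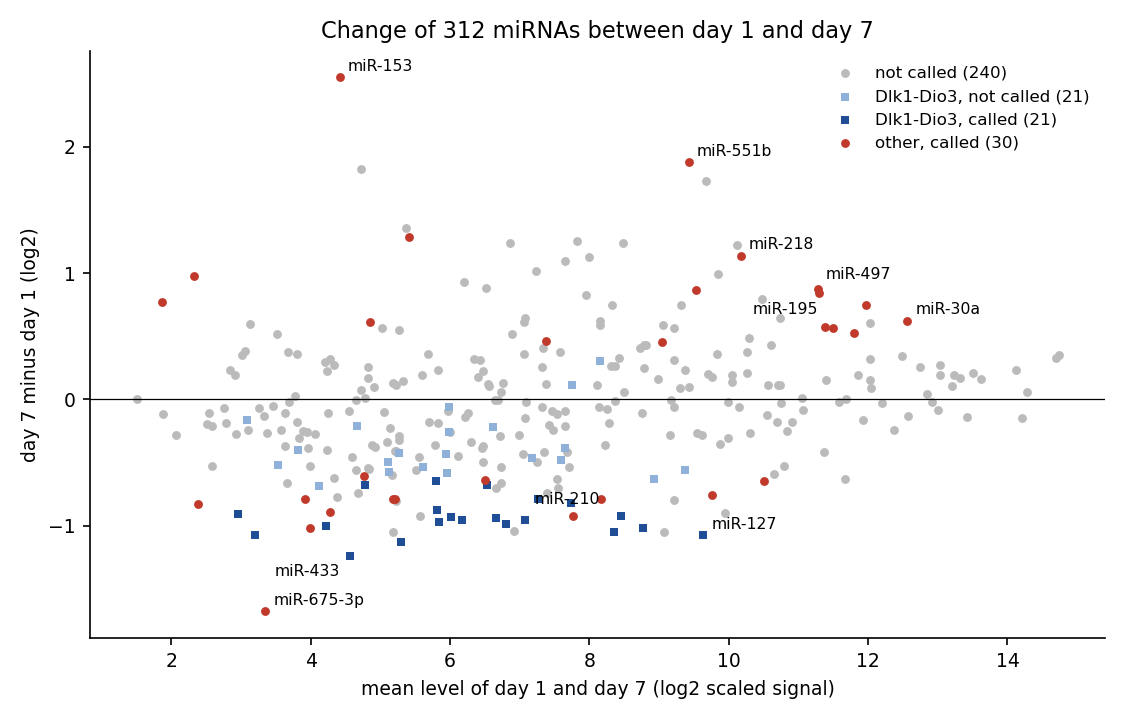
Change between day 1 and day 7 (vertical axis, log2) against the mean level of both ages (horizontal axis, log2 of the scaled array signal) for the 312 miRNAs, 1 point each. Blue squares are the 42 miRNAs of the Dlk1-Dio3 region, 21 of them called (dark), and red circles the 30 other called miRNAs; the squares lie mostly below 0.

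Day 7 arrays were brighter than day 1 arrays. Before scaling, the 75th percentile of the signal over the names detected on all arrays, was 963 intensity units at day 1 (range 577 to 1369, n = 5) and 1498 at day 7 (range 1334 to 1678, n = 5), a ratio of 1.55 (exact permutation test, two-sided p = 0.0238). The dimmest arrays of the first week were day 1 replicates 4 and 5 and day 4 replicate 1. The number of mouse miRNAs detected was 301.4 ± 27.5 at day 1 and 326 ± 9.09 at day 7 (SD, n = 5 each; exact p = 0.103). Correlations between arrays of an age ran from 0.897 to 0.989 at day 1 and from 0.991 to 0.998 at day 7. Of the 51 calls, 8 were also called without the 3 dimmest arrays, a fit chosen after seeing the data that called 11 miRNAs in all (9 falls, 2 rises). With brightness as a covariate 25 were called (10 falls, 15 rises), among them 10 of the 51. All 51 kept their sign in both fits. Leaving out 1 array moved the count of 51 to 24 without day 1 replicate 5, 33 without day 1 replicate 4, 79 without day 1 replicate 2 and 90 without day 1 replicate 3. Without day 7 replicates 1, 2, 3 or 4 it was 32, 28, 32 and 32. The part of brightness in the calls was not tested beyond these fits, and values from these fits are given beside the results below.

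Tissue markers were used to check the label. For the lung's vessel lining, miR-126-3p was detected on all arrays of both ages at 14.26 to 15.05 on the log2 scale. All 8 miRNAs of the fibroblast and smooth muscle list and 15 of the 16 names of the epithelial list were members, whereas 0 of 22 names from the embryonic stem cell clusters were. Of 11 names typical of other organs 2 were members, miR-128 and miR-219. Their changes were 0.06 and 1.35, with 0 called in limma (lowest adjusted p = 0.123). Striated muscle miRNAs varied most: the median level of their 4 members was 12.51 on day 1 replicate 2, 5.69 to 8.39 on the other day 1 arrays and 6.33 to 9.003 at day 7. None of the 4 passed the threshold in limma (0 with an unadjusted p under 0.05, lowest adjusted p = 0.714). The part of this array in other results was not tested beyond the fit without it.

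Imprinted growth-linked miRNAs led the falls. The fall with the lowest adjusted p was that of miR-675-3p, which is cut from the H19 RNA and restrains growth in the placenta. Its levels at day 1 were 4.14, 4.71, 3.78, 4.15 and 4.17 on the log2 scale of scaled signal, and at day 7 they were 2.78, 2.68, 2.35, 2.30 and 2.46. No day 7 array reached any day 1 array, and the day 4 arrays (3.03 to 3.47) lay between both groups without touching either. The change was -1.67 ± 0.14 (SE; 3.19-fold lower, adjusted p = 1.93e-08), with -1.70 without the 3 dimmest arrays and -1.62 with brightness as a covariate, both called. It was also the miRNA whose second step, from day 4 to day 7, was called (-0.77, adjusted p = 0.00702), the only one of the 322 names (0.311%).

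The list of other imprinted hosts, which left out the Sfmbt2 cluster, gave 1 more call. From a host intron in Igf2, miR-483 fell by 0.79 on the log2 scale (adjusted p = 0.0422), with 1 low day 1 array at 3.49 and the other day 1 arrays at 4.37 to 4.67, against 3.28 to 3.77 at day 7. The groups overlapped at that array, and the call was lost without the 3 dimmest arrays (-0.65, adjusted p = 0.169) and with brightness (-0.33, adjusted p = 0.283). The 4 members not called included miR-296-5p (-0.63, adjusted p = 0.0933) and miR-298 (-0.27, adjusted p = 0.14), from the imprinted Gnas region. The list held 6 members, of which 2 fell (10.6% of all names tested fell), with a median of -0.64 against -0.10 over all names tested. In the separate list of the Sfmbt2 cluster 1 of 14 members rose and 0 fell, with a median of 0.19 (5.28% of all names tested rose).

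In the Dlk1-Dio3 region 21 of 42 members fell, or 50% against 10.6% of all names tested, and 0 rose. The median of the 42 was -0.66 and 40 of them lay below 0. A further 28 of the 70 names from the region on the array were not detected on all arrays of either age. For miR-127, which lies opposite the Rtl1 gene and pairs with its message, the day 1 levels were 10.11, 9.85, 9.94, 10.50 and 10.45 and the day 7 levels 8.97, 9.01, 8.85, 9.22 and 9.42. Every day 7 array lay below the lowest day 1 array, and the 2 dim day 1 arrays were the highest. The change was -1.07 ± 0.26 (2.11-fold lower, adjusted p = 0.0095), with -0.87 (adjusted p = 0.0805) without the 3 dimmest arrays and -0.58 (adjusted p = 0.0659) with brightness.

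The same order of arrays was seen in the largest fall of the region. That miRNA, miR-433, also antisense to Rtl1, had day 1 levels of 5.05, 4.62, 4.61, 5.96 and 5.65 and day 7 levels of 3.71, 3.66, 3.86, 4.39 and 4.10. The change of -1.24 ± 0.31 (2.35-fold lower, adjusted p = 0.0113) was -0.82 (adjusted p = 0.1) without the 3 dimmest arrays. For miR-409-5p the dim day 1 arrays were at 6.64 and 6.58 and the others at 6.60, 6.35 and 6.22, against 5.36 to 5.77 at day 7, so that the dim arrays stood less apart. It fell by 0.93 on the log2 scale (SE 0.19, adjusted p = 0.0041), and remained called at -0.84 (adjusted p = 0.0331) without the dim arrays and at -0.74 (adjusted p = 0.0236) with brightness. The other member of the region called in both fits was miR-154 (-0.82, -0.89 and -0.68 in the 3 fits), which is named here after its values were seen. Further falls in the region included miR-409-3p with -1.13, miR-134 with -1.07, miR-329 with -1.05 and miR-434-3p with -1.02. They also included miR-543 with -0.998, miR-337-5p with -0.99, miR-369-5p with -0.97 and miR-411* with -0.96. Without the 3 dimmest arrays these further falls ran from -0.89 for miR-411* to -0.73 for miR-434-3p. With brightness they ran from -0.80 for miR-411* to -0.44 for miR-329.

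The region's changes became more alike once the dim arrays were left out, as did those of most other lists. With all arrays the 42 changes ran from -1.24 to 0.30 with an SD of 0.35. Without the 3 dimmest arrays they ran from -0.99 to -0.16 with an SD of 0.14 around a median of -0.77, and all 42 lay below 0, though 4 were called. The members above 0 with all arrays were miR-136 (0.30, adjusted p = 0.715) and miR-376a (0.11, adjusted p = 0.893), named here after their values were seen. Their levels on day 1 replicates 4 and 5 were the lowest of that age, at 6.15 and 6.94 for miR-136 and 6.05 and 6.81 for miR-376a, against 7.65 to 9.67 for both on the other day 1 arrays. Without the dim arrays they stood at -0.67 and -0.73. The member nearest 0 in that fit was miR-494 at -0.16, also named after its value was seen; on all arrays it was at -0.56 (adjusted p = 0.132). In the brightness fit the median of the 42 was -0.66, 41 of 42 lay below 0 and 5 were called. The narrowing without the dim arrays was not particular to the region. The SD went from 0.42 to 0.12 in the miR-17 clusters and from 0.37 to 0.14 in the miR-322 cluster. In the miR-23, miR-24 and miR-27 clusters it went from 0.51 to 0.14. It widened in the miR-148 and miR-152 family (0.01 to 0.13) and in the p53- and stress-regulated list (0.08 to 0.20).

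**Figure D2:**
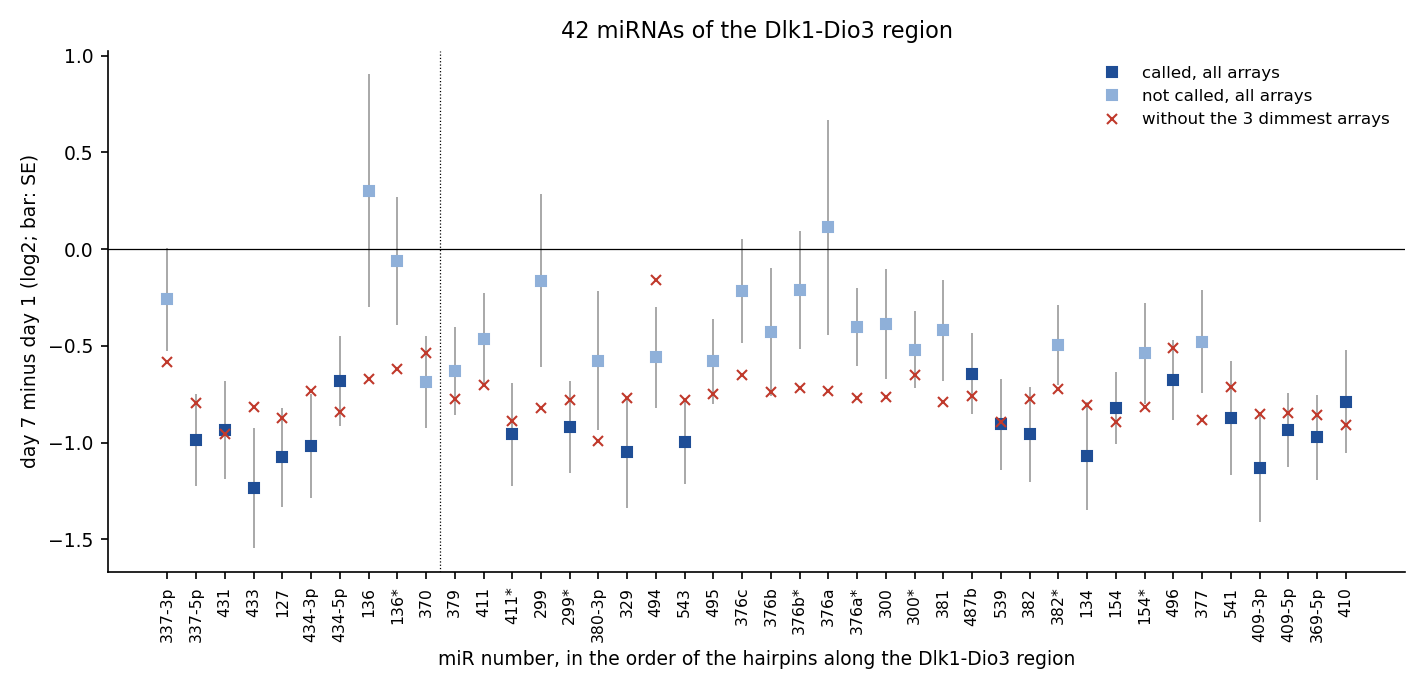
Change between day 1 and day 7 (log2) of the 42 members of the Dlk1-Dio3 region in the order of their hairpins, with the standard error as a bar (squares, all arrays; dark where called) and the change without the 3 dimmest arrays as crosses. The dotted line parts the members near Rtl1 (left) from those in the long array of hairpins further along; the squares run from -1.24 to 0.30 and the crosses from -0.99 to -0.16.

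Along the chromosome both groups of hairpins held falls. The 10 members beside Rtl1, from 7 hairpins (chr12:109585789-109618336), had a median of -0.81 and 6 of them fell. The 32 members of the longer array of hairpins, from 24 hairpins (chr12:109709060-109743795), had a median of -0.60 and 15 of them fell. Without the 3 dimmest arrays the medians were -0.76 and -0.77. Within slides 1, 2 and 3, each of which carried both ages, the median of all 42 was -0.58, -0.74 and -0.84. On slide 2 the only day 1 array was replicate 2, and on slide 3 the only day 7 array was replicate 3. The median depended on scaling: with no scaling it was 0.04, when the median over all names tested was 0.60, and under the other scalings it ran from -0.68 to -0.49. With normexp background correction it was -1.08, when that over all names tested was -0.83, and 0 falls were called. With slide as a block 17 of the 42 fell.

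The oxygen-regulated miR-210, which is switched on by hypoxia-inducible factor and slows mitochondrial respiration, fell over the same week. Its day 1 levels were 8.30, 8.51, 8.08, 8.02 and 8.21, and its day 7 levels 7.24, 7.25, 7.23, 7.33 and 7.44. All day 7 arrays lay below all day 1 arrays, and the dim arrays of day 1 stood within the range of the others or just below it. The fall of 0.93 on the log2 scale (SE 0.13, 1.90-fold, adjusted p = 3.74e-05) was 1 of the 5 changes already called between day 1 and day 4 (-0.54, adjusted p = 0.0241; 1.55% of all names tested were called in that step). The change was -0.998 without the 3 dimmest arrays (adjusted p = 9.15e-05) and -0.82 with brightness.

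In the miR-130 and miR-301 family, whose members act on growth and vessel genes, 2 of 4 members fell and 0 rose, with a family median of -0.31 (10.6% of all names tested fell). The levels of miR-130b were 8.78, 8.46, 8.35, 8.53 and 8.71 at day 1 and 7.75, 7.73, 7.68, 7.92 and 7.81 at day 7. The groups did not overlap, and the dim arrays lay inside the day 1 range. Its fall of 0.79 (SE 0.16, 1.73-fold, adjusted p = 0.0041) and that of miR-301b, from a hairpin in the same cluster, of 0.89 (SE 0.19, adjusted p = 0.00492) were both called without the dim arrays and with brightness. The other members, miR-130a and miR-301a, share the seed of miR-130b but come from other chromosomes. Their changes were 0.17 ± 0.13 (adjusted p = 0.328) and 0.49 ± 0.29 (adjusted p = 0.235), or 0.03 and -0.07 without the dim arrays. With probes as alike as those for miR-130a and miR-130b, part of a signal may be shared.

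Among the rises, the pair miR-195 and miR-497 from one short stretch of chromosome 11 had the lowest adjusted p. Both belong to the miR-15 and miR-16 family, which holds back cell cycle genes and is known from the heart as a brake on cell division after birth. The levels of miR-195 were 11.25, 10.82, 11.09, 10.44 and 10.77 at day 1 and 11.66, 11.68, 11.68, 11.88 and 11.69 at day 7. No day 1 array reached the day 7 arrays. The rise was 0.84 ± 0.13 (1.79-fold, adjusted p = 0.000132), or 0.66 (adjusted p = 0.00188) without the dim arrays and 0.82 (adjusted p = 0.000747) with brightness.

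Its neighbour miR-497 gave nearly the same values. It stood at 11.18, 10.86, 11.12, 10.47 and 10.57 at day 1 and at 11.67, 11.74, 11.67, 11.85 and 11.62 at day 7, again without overlap, and rose by 0.87 ± 0.12 (1.83-fold, adjusted p = 4.55e-05). The rise was 0.66 (adjusted p = 0.000313) without the dim arrays and 0.80 (adjusted p = 0.000422) with brightness. Both were also called in the step from day 1 to day 4 (0.71 and 0.68), and 84.0% and 77.9% of their change was reached by day 4. These 2 were the miRNAs called in each of the 26 fits that were run. Of the other family members, miR-15a rose by 0.74 (adjusted p = 0.0476) with overlapping groups, at 10.62 to 12.23 at day 1 and 12.16 to 12.41 at day 7, and was at 0.26 (adjusted p = 0.383) without the dim arrays and 0.25 (adjusted p = 0.386) with brightness. The member miR-15b had a change of -0.24 ± 0.17 (adjusted p = 0.305). In all, 3 of the 6 members rose and 0 fell (5.28% of all names tested rose), with a family median of 0.50, or 0.23 without the dim arrays.

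**Figure D3:**
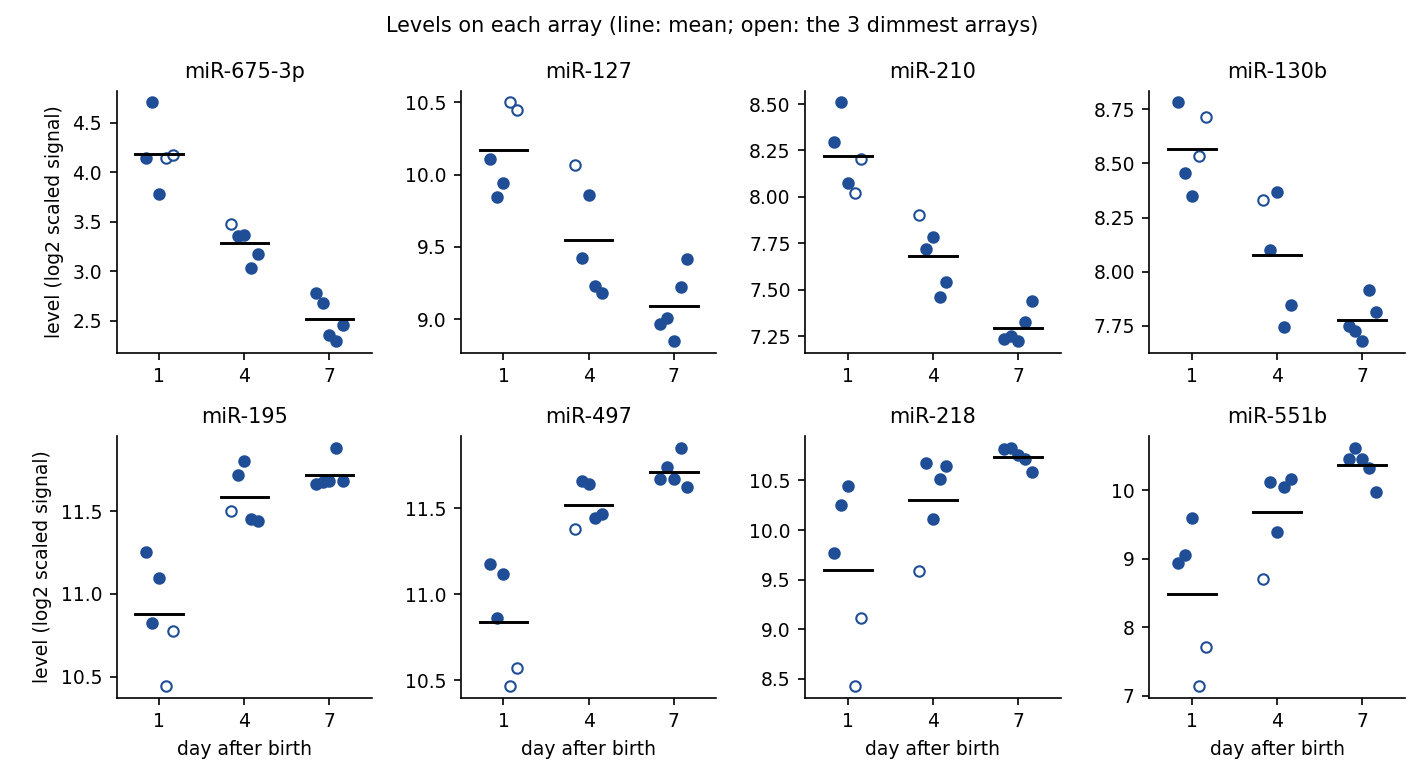
Levels (log2 scaled signal) of 8 miRNAs on each array of day 1, day 4 and day 7, 5 arrays per age, with the mean of each age as a line and the 3 dimmest arrays as open circles. The upper row falls and the lower row rises; for miR-218 and miR-551b the open circles are the lowest of their age, while for miR-210 and miR-130b they lie near the other arrays.

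The largest rises were less certain. The vertebrate miRNA miR-551b had day 1 levels of 8.94, 9.06, 9.59, 7.14 and 7.71 and day 7 levels of 10.45, 10.62, 10.46, 10.33 and 9.97. The groups did not overlap, but the dim arrays set the low end of day 1. The SD was 1.02 at day 1, 0.24 at day 7 and 1.71 at day 14, and the limma model pooled the spread of all 5 ages. The rise of 1.88 ± 0.60 (3.67-fold, adjusted p = 0.043) was 1.17 (adjusted p = 0.323) without the 3 dimmest arrays and 1.23 (adjusted p = 0.199) with brightness. Likewise miR-218, which is hosted by the axon guidance genes Slit2 and Slit3, went from 9.77, 10.25, 10.44, 8.43 and 9.11 to 10.82, 10.83, 10.76, 10.71 and 10.58. This rise of 1.14 ± 0.29 (2.20-fold, adjusted p = 0.0113) was 0.59 (adjusted p = 0.0805) without the dim arrays and 0.58 (adjusted p = 0.0835) with brightness. The highest fitted rise was that of miR-153 (2.55 ± 0.83, adjusted p = 0.0441), named here after its values were seen. It was detected on 2 of 5 day 1 arrays, ran from 1.17, the floor of the scale, to 5.36 there and from 5.06 to 6.14 at day 7, and stood at 1.39 (adjusted p = 0.266) without the dim arrays and 0.64 (adjusted p = 0.407) with brightness.

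The remaining rises that met the rule for naming were smaller. They were miR-30a with 0.62, miR-467e of the Sfmbt2 cluster with 0.61, miR-27b with 0.56, miR-326 with 0.46 and miR-181c with 0.45, to which the lists add miR-26b with 0.52. The rule also names miR-701, which was detected on 2 of 5 day 1 arrays and lay at the floor of the scale on the other 3, so that its fitted change of 0.77 depends on the floor. Of these, miR-30a belongs to a family common in epithelium, and was the single call among its 10 members (5.28% of all names tested rose; family median 0.18). With brightness 3 other members of the family were called as rises and miR-30a was not (0.34, adjusted p = 0.157). With miR-27b, which acts on vessel sprouting and fat cell genes, the minor arm miR-24-1* of the same hairpin cluster was also called (1.29, adjusted p = 0.0475; detected on 3 of 5 day 1 arrays). These were 2 rises among 7 members, and the median over the 7 members of the miR-23, miR-24 and miR-27 clusters was 0.56. None of these rises was called without the 3 dimmest arrays by limma, with an adjusted p from 0.0559 for miR-27b to 0.427 for miR-24-1*. With brightness as a covariate miR-326 was called (0.58, adjusted p = 0.00683).

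Markers of cell types gave few calls. In the fibroblast and smooth muscle list 2 of 8 members rose (5.28% of all names tested rose), miR-143 by 0.58 (adjusted p = 0.0143) and miR-145* by 0.97 (adjusted p = 0.036), both from one smooth muscle hairpin cluster. The level of miR-145* was detected on 1 of 5 day 1 arrays and lay at or just above the floor on 2, at 1.17 and 1.22, so that the size of its change depends on the floor. The main arm miR-145 was at 0.06 (adjusted p = 0.896), and at 0.70 (adjusted p = 0.0216) with brightness. Of the 8 members 4 lay below 0. The lowest was miR-214 at -0.90, not called and named here after its value was seen. The list median was 0.02. Without the dim arrays neither miR-143 nor miR-145* was called (adjusted p = 0.0856 and 0.0896), nor was either with brightness (adjusted p = 0.0835 and 0.162). In the endothelial list 1 of 4 rose, again beside 5.28% of all names, miR-126-5p by 0.86 (adjusted p = 0.0441), the minor arm of the hairpin that supports vessel growth. The main arm miR-126-3p was at 0.35 (adjusted p = 0.0653), and the list median was 0.23. Without the dim arrays miR-126-5p was at 0.62 (adjusted p = 0.172), with brightness at 0.48 (adjusted p = 0.239) and with slide as a block at 0.83 (adjusted p = 0.0544), called in none of these fits.

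In blood and immune cells 1 of 9 leukocyte miRNAs fell, 11.1% and so near the 10.6% of all names tested. This was miR-223, the miRNA of neutrophils and other myeloid cells, which stood at 10.81, 10.41, 10.77, 10.87 and 11.26 at day 1 and at 10.16, 9.98, 10.15, 10.34 and 10.27 at day 7. The groups did not overlap, and the fall was 0.64 (SE 0.16, 1.56-fold, adjusted p = 0.00968), or 0.48 (adjusted p = 0.0856) without the dim arrays and 0.39 (adjusted p = 0.066) with brightness. The pan-leukocyte miR-142-3p was at 1.22 ± 0.57 (adjusted p = 0.134), with day 1 arrays from 7.78 to 11.22, and at 0.38 without the dim arrays and -0.08 with brightness. The list median was -0.06. Of the 3 red blood cell miRNAs none passed the threshold in limma (1 with an unadjusted p under 0.05; 0.33 for miR-451, -0.54 for miR-486 and 1.73 ± 0.95 for miR-144).

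Several other families and cell type lists gave no call or 1 call by limma. In the miR-29 family, which holds back collagen and elastin messages, miR-29a was at 0.20 ± 0.23 (adjusted p = 0.525), miR-29c at 0.59 ± 0.32 (adjusted p = 0.19) and miR-29b at 1.25 ± 0.62 (adjusted p = 0.148). Without the dim arrays they were at -0.07, 0.06 and 0.24, with brightness at -0.06, -0.02 and -0.17, and 1 of the 5 members had an unadjusted p under 0.05. The 9 let-7 members, which mark late development, had a median of 0.21 with 0 called (3 at an unadjusted p under 0.05). In the fit with brightness let-7b (0.68, adjusted p = 0.00149) and let-7c (0.60, adjusted p = 0.004) were called as rises; without the dim arrays they were at 0.44 (adjusted p = 0.242) and 0.36 (adjusted p = 0.322). The 10 members of the miR-322 cluster had a median of -0.04 with 0 called (1 at an unadjusted p under 0.05). Its median was -0.19 without the dim arrays and -0.05 with brightness. In the miR-17 clusters 1 of 14 fell, or 7.14% beside 10.6% of all names, the minor arm miR-18a* (-0.83, adjusted p = 0.0475; -0.39, adjusted p = 0.349, without the dim arrays). The epithelial list (15 members, median -0.11) and the multiciliated cell list (6 members, median -0.13) had 0 called in limma (5 and 0 at an unadjusted p under 0.05). Without the dim arrays their medians were -0.09 and -0.05, and with brightness -0.05 and -0.11, again with 0 called.

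Many calls hung on single arrays, and 24 of the 51 were kept when any 1 array was left out. Without day 1 replicate 5 the calls of miR-411* (-0.91, adjusted p = 0.0523) and miR-434-3p (-0.92, adjusted p = 0.0523) were lost. Those of miR-329 were lost without day 1 replicate 4 or 5, of miR-805 without day 1 replicate 5 or day 7 replicate 2, and of miR-326 without day 1 replicate 5 or day 7 replicate 4. Leaving out replicate 4 or 5 of day 1, or replicate 2 or 4 of day 7, ended the calls of miR-30a and miR-181c. For miR-551b, miR-15a, miR-26b and miR-467e this held for day 1 replicates 4 and 5 and for each day 7 array; the value of miR-551b then ran from 1.54 to 1.98. For miR-126-5p, miR-145*, miR-153, miR-24-1*, miR-483, miR-701, miR-18a* and miR-434-5p it held for 6 to 9 of the 10 arrays, day 1 replicate 5 among them in each case. In the other direction miR-126-3p was called without day 1 replicate 1 (0.43), and miR-142-3p (1.64), miR-29b (1.69) and miR-296-5p (-0.75) without day 1 replicate 3. The remaining named calls were kept whichever single array was left out. With slide as a block 34 names were called (10 rises, 24 falls), and the calls of miR-551b, miR-467e, miR-153, miR-15a, miR-126-5p, miR-24-1*, miR-26b, miR-434-5p, miR-483 and miR-18a* were lost, at an adjusted p from 0.0544 to 0.0705.

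Only miR-877 was detected on all 5 arrays of one age and on none of the other. Its mean level was at least 1.502-fold higher at day 7, with the day 1 arrays taken at the higher of their own signal and the lowest detected signal. The single arrays overlapped, at 2.37 to 3.45 at day 1 and 3.09 to 3.67 at day 7. Its fitted change of 0.59 ± 0.26 was not called in limma (adjusted p = 0.11). It is a member only through its detection at day 7, so the fold is no separate support for a rise. The members just inside the detection rule were many: 53 were detected on all day 7 arrays but not all day 1 arrays, 3 the other way round, and 256 on all arrays of both. Just outside it, 9 mouse names were 1 array short.

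Both arms of a hairpin were members in 64 cases. In 2 hairpins, miR-409 and miR-434, both arms were called and both fell, in 11 a single arm was called, and in 0 were the arms called in opposite directions. The arms had the same sign in 42 of the 64, and their changes differed by a median of 0.37. In miR-434 the arms differed on the dim arrays: the level of miR-434-3p was highest there at day 1 (9.77 and 9.66), that of miR-434-5p lowest (6.44 and 6.81). For miR-411 the minor arm was called (-0.96) and the main arm was at -0.47 (adjusted p = 0.158), and for miR-337 the arms were at -0.99 and -0.26 (adjusted p = 0.48 for miR-337-3p). Without the dim arrays these 2 pairs were at -0.89 and -0.70, and at -0.79 and -0.58.

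Day 4 lay between the ends of the week for all 51 called miRNAs. The 51 were chosen by the gap between day 1 and day 7, which favours a day 4 mean between them. By day 4 the falls had reached a median of 59.8% of their change and the rises 67.5%, with single miRNAs from 16.7% to 87.4%. A test of day 4 against the midpoint of day 1 and day 7 called 0 of 322 names in limma (0%; 3 at an unadjusted p under 0.05, smallest adjusted p = 0.953). A miss of the threshold does not show that the course was straight. The dimmest arrays were day 1 replicates 4 and 5 and day 4 replicate 1. The shares reached by day 4 were not computed without them, and the part of brightness in the order of the ages was not tested. In the single steps 5 names were called from day 1 to day 4 (miR-675-3p, miR-210, miR-301b, miR-195 and miR-497) and 1 from day 4 to day 7.

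**Figure D4:**
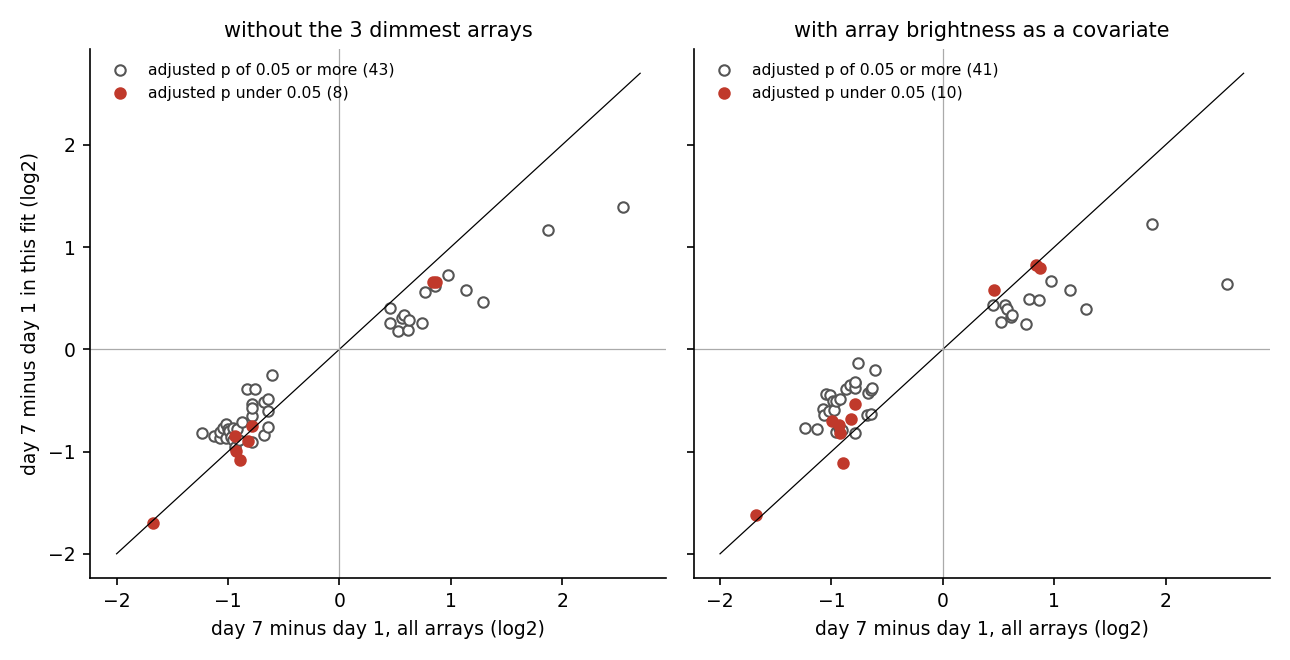
Change between day 1 and day 7 (log2) of the 51 called miRNAs with all arrays (horizontal axes) against the change without the 3 dimmest arrays (left) and with array brightness as a covariate (right); the line marks equal values and red points have an adjusted p under 0.05 in the second fit. All 51 kept their sign, the points lie mostly nearer 0 than the line, and 8 and 10 remained called.

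After the week the courses of the named miRNAs differed. The mean level of miR-675-3p was 2.51 at day 7, 1.24 at day 14 and 1.17, the floor of the scale, at day 42. That of miR-127 was 9.09, 7.75 and 6.05, with day 14 replicate 5 at 8.59 and the other day 14 arrays at 7.27 to 7.66. For miR-210 the means were 7.30, 6.87 and 6.84, and for miR-195 they were 11.72, 12.12 and 12.32. Those of miR-551b were 10.36, 7.27 and 4.59, with 4 of the day 14 arrays at 6.32 to 6.64 and replicate 5 at 10.32. Its day 7 mean lay above the means of day 1 and day 42. For miR-223 they were 10.18, 10.50 and 11.26, which makes day 7 its lowest mean of the 5 ages.

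Of the 39 herpesvirus names on the array, which have no known source in healthy lung, 3 were tested and 0 passed the threshold in limma (1 with an unadjusted p under 0.05). That name, mghv-miR-M1-2, ran from 3.62 to 5.05 at day 1 and from 3.10 to 3.69 at day 7, with a change of -0.76 (adjusted p = 0.0753) and of -0.05 with brightness as a covariate. The others were detected on all arrays of both ages, well above the floor. They were mcmv-miR-M23-1-5p at 7.27 to 8.12 (change -0.30, adjusted p = 0.202) and mcmv-miR-m88-1 at 5.08 to 6.56 (0.20, adjusted p = 0.539). Dim miRNAs among the falls included miR-18a*, miR-675-3p, miR-433, miR-134, miR-805 (-1.02, adjusted p = 0.0168), miR-543, miR-301b and miR-483. With brightness these stood at -0.35, -1.62, -0.77, -0.64, -0.60, -0.70, -1.11 and -0.33. The part of unspecific signal in the falls, of dim or of brighter miRNAs, was not tested beyond this.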

How the data were processed

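Total RNA from whole lung was hybridised to 1-colour Agilent miRNA arrays, read with Agilent Feature Extraction 10.7.1.1 per the file headers and the submitters' processing notes. The deposited array files hold intensity values per miRNA (the total gene signal, background-subtracted by the authors' software) and a detection flag, with no adjustment between arrays. The authors' deposited series table holds log2 values for 672 names, each column with a median of 2.415. Against the log2 signal of its own array each column followed a line with a slope of 0.893 to 1.08 (Pearson r at least 0.998); how the authors made it is not given in the sources used here. It served as an alternative.

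Here each array's intensity was divided by its 75th percentile over the 228 names detected on all 24 arrays, multiplied by 1 common factor, floored at 2.25 (1.17 on the log2 scale) and log2-transformed. The 322 names detected on all arrays of at least 1 of the 5 ages entered a linear model in limma 3.58.1 under R 4.3.3 (1 model, 5 ages, 19 residual degrees of freedom, two-sided, Benjamini-Hochberg over the 322 names); a call is an adjusted p under 0.05. Errors after ± are standard errors unless SD is named. P-values measure the spread between these samples, pooled in limma over the 5 ages, and the number of arrays limits the precision. Levels were compared between arrays for 1 miRNA at a time, not between miRNAs.

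Named miRNAs are the 12 largest calls each way without overlap and with detection throughout the higher age (10 rises met this), up to 4 members per list, those detected at one age alone, and the other arms of the former; any others are said to have been chosen after their values were seen. The members and lists were chosen with earlier results of these data known. Alternatives were other scalings (75th percentile over all names, median, quantile, none, the deposited table), averaged spot signals, normexp background correction, other floors and filters, the 2 ages alone, slide or replicate blocks, brightness (log2 of the 75th percentile) as a covariate, and leaving out arrays. For normexp the median spot signal was used, since the files used here hold no mean signal. Drawing and tables used Python 3.11.15, pandas 2.3.3, numpy 2.4.6, scipy 1.17.1 and matplotlib 3.10.9.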

Additional observations from a re-analysis of the deposited data

Results flagged for a closer look

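In 9 of the 122 groups checked (each of the 61 miRNAs named, at day 1 and at day 7), 1 array lay far from the other 4; chance gives this in about 1 group in 20. For miR-195 day 7 replicate 4 stood highest, at 11.88 against 11.69 for the next array, as it did for miR-130a (13.57 against 13.39) and miR-126-3p (15.05 against 14.89). Day 7 replicate 3 stood lowest for miR-143 (11.49 against 11.70) and miR-126-5p (9.41 against 10.03). Day 7 replicate 5 was lowest for miR-15a (12.16 against 12.34) and highest for miR-145* (3.14 against 2.77). At day 1, replicate 4, the dimmest array, was highest for miR-134 (4.51 against 3.75), and replicate 3 was lowest for miR-483 (3.49 against 4.37). No explanation was tested.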

How the results depend on the processing

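The 51 calls (17 rises, 34 falls) became 84 when the 75th percentile was taken over all names, 124 with no scaling (1 fall), 6 with normexp (0 falls), 25 with brightness as a covariate (10 falls) and 11 without the 3 dimmest arrays (9 falls, 2 rises). The rises numbered 29 after median scaling, 44 after quantile normalization, 52 for the 75th percentile over all names, 48 for the deposited values, 123 with no scaling, 6 with normexp, and 10 each without the filter on dim names, with the 2 ages alone and with slide as a block. Without 1 array the calls ran from 24 to 90, the rises from 5 to 44 and the falls from 19 to 46. Changes that turned sign with normexp were miR-701 (-1.19), miR-467e (-0.91), miR-326 (-0.26), miR-153 (-0.60), miR-145* (-1.16) and miR-24-1* (-0.59); with no scaling miR-434-5p was at 0.023 and miR-223 at 0.0598. With a floor 4 times higher miR-701 and miR-145* were at 0, both ages lying at the floor. In each case the cause was not tested.

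The replicate numbers did not pair the arrays: deviations of arrays with the same number correlated at -0.27 to 0.61, and 1 of the 5 numbers correlated best with its own. With the replicate block 47 names were called (15 rises, 32 falls). Of the 51 calls, 24 were kept when any 1 array was left out and 8 both without the 3 dimmest arrays (a fit added after seeing the data) and with brightness. Signal over background was low for names near the floor of 1.17, where values have no order.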
